A study of Mus musculus with 2 samples.

Results

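The genes described here are 10 chemokine genes that fibroblasts can express, Ccl2, Ccl5, Ccl7, Ccl20, Cxcl1, Cxcl2, Cxcl5, Cxcl10, Cxcl12 and Cx3cl1, out of 19946 genes with a probe set of their own on the array. They were chosen by name, and each was measured by 1 probe set whose annotation names that gene alone. The cells were mouse embryonic fibroblasts (MEFs), connective tissue cells grown from embryos. The celastrol group received 250 nM celastrol, a triterpenoid from the thunder god vine, for 7 h, and the DMSO group received the solvent for the same time. Cells of both groups carried an adenovirus that expresses LacZ, the beta-galactosidase gene often used as a neutral cargo, and were kept in DMEM with 1% serum. The sources used here do not give the strain, the passage or the number of pooled cultures. RNA of each group was measured on 1 Affymetrix whole-transcript array, so no difference below has a replicate check and no p-value is given. The treatment cannot be told apart from the culture and the array.

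Chemokines are small secreted proteins, with the membrane-anchored Cx3cl1 as an exception, that bind heparan sulphate on cell surfaces and steer leukocytes through G protein-coupled receptors. Their names follow the spacing of conserved cysteines near the amino terminus (CC, CXC and CX3C). Fibroblasts make most of the inflammatory ones after signals such as TNF or IL-1, which act through NF-kB, the transcription factor family that binds kappa B sites. Cxcl12 differs in that fibroblasts and stromal cells make it without such signals.

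The promoter letters of 4 members are shown because each stretch held a match to the kappa B consensus, the letter pattern of kappa B sites. RefSeq promoter entries (build GRCm38.p6) were matched for 6 of the 10 members, Ccl20, Cxcl1, Cxcl2, Cxcl10, Cxcl12 and Cx3cl1, and the 250 bases before each gene start were searched on both strands. The stretches lie at chr5:90890995-90891244 (plus strand) for Cxcl1, chr5:90903649-90903898 (plus strand) for Cxcl2, chr5:92348890-92349139 (minus strand) for Cxcl10 and chr1:83116516-83116765 (plus strand) for Ccl20, each printed 5′ to 3′ up to the base before the gene start. Capitals mark every match to the kappa B consensus. In Cxcl10 they also mark, before all kappa B matches, a match to the interferon response element core (GAAA, any 2 bases, GAAA) and, after them, a match to the AP-1 motif TGANTCA.
Cxcl1: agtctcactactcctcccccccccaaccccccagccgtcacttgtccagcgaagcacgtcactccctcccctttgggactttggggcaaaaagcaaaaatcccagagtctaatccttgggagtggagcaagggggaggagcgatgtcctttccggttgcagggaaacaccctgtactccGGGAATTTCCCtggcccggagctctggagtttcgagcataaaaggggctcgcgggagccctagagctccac
Cxcl2: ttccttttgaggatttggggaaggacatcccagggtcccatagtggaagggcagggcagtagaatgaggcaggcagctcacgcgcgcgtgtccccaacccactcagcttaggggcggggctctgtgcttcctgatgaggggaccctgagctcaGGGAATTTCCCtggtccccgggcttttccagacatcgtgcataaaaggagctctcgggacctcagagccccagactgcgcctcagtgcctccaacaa
Cxcl10: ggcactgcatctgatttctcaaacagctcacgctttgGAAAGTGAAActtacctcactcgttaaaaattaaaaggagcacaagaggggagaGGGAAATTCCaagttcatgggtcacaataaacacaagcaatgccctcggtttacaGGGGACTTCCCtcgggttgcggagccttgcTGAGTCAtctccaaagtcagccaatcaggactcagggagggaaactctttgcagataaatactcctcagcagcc
Ccl20: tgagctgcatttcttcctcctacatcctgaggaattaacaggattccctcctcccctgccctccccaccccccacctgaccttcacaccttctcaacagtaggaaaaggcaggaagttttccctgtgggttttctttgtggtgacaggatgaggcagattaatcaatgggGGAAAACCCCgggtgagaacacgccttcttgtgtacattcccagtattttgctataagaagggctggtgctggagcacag

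A match to the kappa B consensus was found in 4 of the 6 member stretches, those printed above, and in 7.25% of all 32851 promoter stretches of that length. Cxcl1 and Cxcl2 carried the same letters, GGGAATTTCC, starting 71 bases before the gene start in Cxcl1 and 97 bases before it in Cxcl2, and the reverse strand gave a second match shifted by 1 base. The longest run the 2 stretches share, GGGAATTTCCCTGG, is 14 bases long and contains these matches. Cxcl10 held GGGAAATTCC at 159 bases, GGGGACTTCC at 104 bases and GGGACTTCCC at 103 bases before the start, of which the last pair overlap. Ccl20 held GGAAAACCCC, a match on the reverse strand, at 80 bases before the start. No match was found in the Cxcl12 and Cx3cl1 stretches. The AP-1 motif and the interferon element core were present in 6.75% and 2.98% of all stretches, and among the members in Cxcl10 alone. GAANNTTC, a pair of the units that make up heat shock elements, was present in 0 of the 6 member stretches and in 6.69% of all. A match describes letters and not a bound site, and the motifs overlapped no match of another motif in these stretches.

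All 9 members above the detection limit were lower in the celastrol array, and 8 of these reached 2-fold. A gene was called detected when its RMA value (log2 array signal after the authors' normalization) exceeded 5.73 in at least 1 array, the level that olfactory and vomeronasal receptor probe sets rarely pass. The 9 detected members passed this limit in both arrays. Over all 13902 detected genes, 0.662% were at least 2-fold lower with celastrol, 1.88% at least 2-fold higher and 51.9% lower by any amount. No member was at least 2-fold higher. The median log2 difference (celastrol minus DMSO) of the 9 members was -1.37, against -0.01 for all detected genes. The members were picked with earlier results of these data known, so this count is a description and not independent evidence. In a whole culture, fewer cells that make a chemokine and less RNA per cell cannot be told apart.

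**Figure D1:**
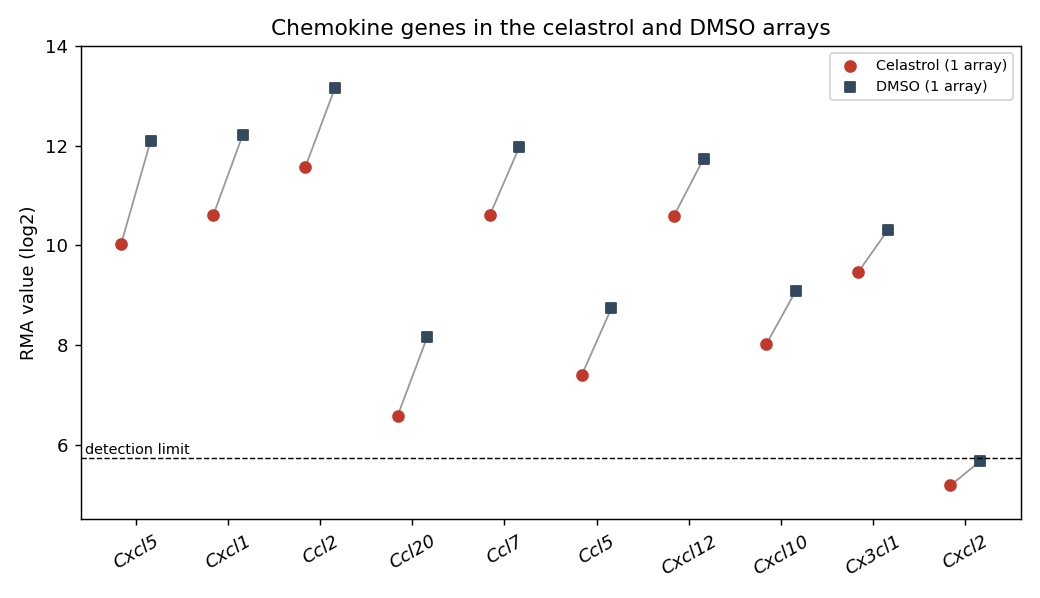
RMA values (log2, vertical axis) of the 10 chemokine genes in the celastrol array (red circles) and the DMSO array (dark squares), joined per gene and ordered by difference, with the detection limit of 5.73 as a dashed line. For all 10 genes the celastrol point lies under the DMSO point, and both Cxcl2 points lie under the limit.

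The neutrophil-attracting ligands of the receptor Cxcr2 were led by Cxcl5. Cxcl5 (probe set 10523120) had a value of 10.03 with celastrol and 12.10 with DMSO, a log2 difference of -2.07 or 4.19-fold lower. That difference was the third lowest of all 13902 detected genes. Cxcl1, the mouse KC protein (probe set 10523151), had 10.61 with celastrol and 12.22 with DMSO, 3.06-fold lower and rank 17 from the lowest difference. Both genes remained far above the detection limit after celastrol. Cxcl2, also called MIP-2 (probe set 10523156), had 5.18 with celastrol and 5.66 with DMSO. Both values are under the limit, so no fold is given for it.

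The 2 members that attract monocytes through Ccr2 were both over 2-fold lower. Ccl2, the chemokine MCP-1 (probe set 10379511), had 11.58 with celastrol and 13.16 with DMSO, 2.99-fold lower and rank 20. Ccl7, or MCP-3 (probe set 10379518), had 10.60 with celastrol and 11.97 with DMSO, 2.58-fold lower and rank 40. Their log2 differences were -1.58 and -1.37. The central 95% of the receptor probe sets, which are not expected to be expressed in fibroblasts, ran from -0.42 to 0.41. Those probe sets mostly lie under the detection limit, so their scatter cannot judge the gap between 2 bright genes.

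Ligands of lymphocytes and dendritic cells formed a further group of lower values. Ccl20, the ligand of Ccr6 on dendritic cells and Th17 cells (probe set 10347888), had 6.58 with celastrol and 8.15 with DMSO, 2.98-fold lower and rank 22. Its celastrol value was the nearest to the detection limit among the detected members, and RMA can understate the difference of a dim probe set. Ccl5, or RANTES, which attracts T cells and monocytes (probe set 10389207), had 7.40 with celastrol and 8.74 with DMSO, 2.52-fold lower and rank 42. Cxcl10, an interferon-inducible ligand of Cxcr3 on activated T cells (probe set 10531415), had 8.01 with celastrol and 9.08 with DMSO. It was 2.10-fold lower, at rank 77, the smallest difference among the 8 members past 2-fold.

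Cxcl12 and Cx3cl1 were lower as well. Cxcl12, the stromal ligand of Cxcr4 that retains stem cells and lymphocytes (probe set 10541075), had 10.59 with celastrol and 11.74 with DMSO, 2.21-fold lower and rank 68. Cx3cl1, or fractalkine, which also serves as an adhesion molecule (probe set 10574220), had 9.46 with celastrol and 10.31 with DMSO. At 1.79-fold lower it was the detected member that did not reach 2-fold, at rank 189, and 1.35% of detected genes had lower differences. The difference between these 2 genes and the members with a kappa B match was not tested.

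**Figure D2:**
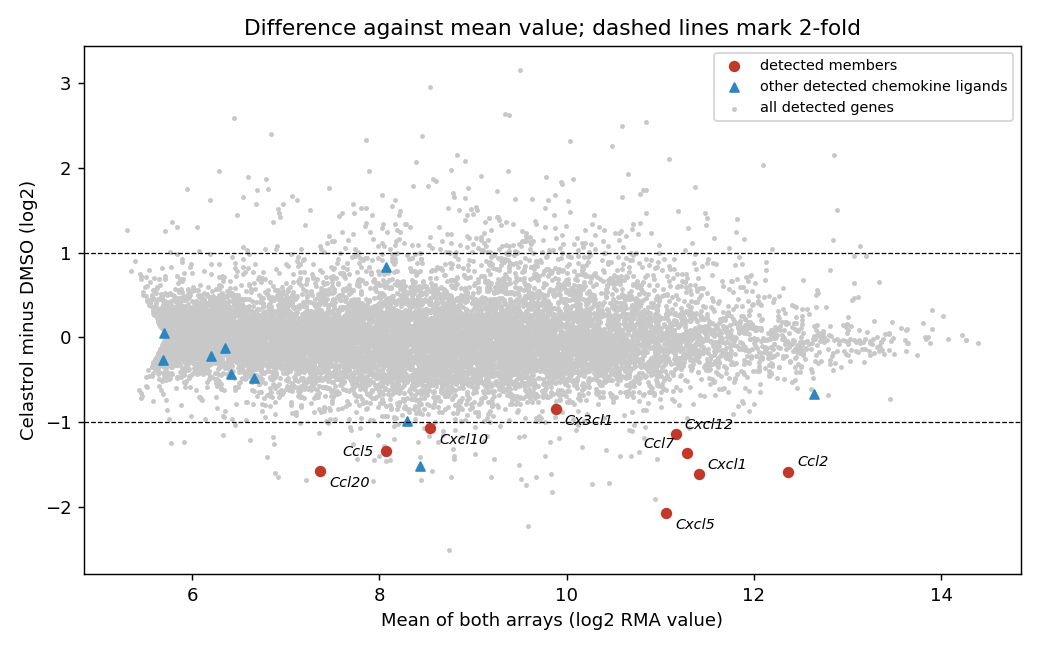
Log2 difference (celastrol minus DMSO, vertical axis) against the mean of both arrays (log2 RMA value, horizontal axis) for the 9 detected members (red, named), the 10 other detected chemokine ligands (blue triangles) and all 13902 detected genes (grey), with dashed lines at 2-fold. The members lie along the lower edge of the grey cloud at both low and high mean values, and Cxcl5 is the lowest of them.

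The remaining chemokine ligands of the mouse were mostly not detected, and those detected ran from lower to higher with celastrol. Of 28 other ligands, 26 had a probe set of their own, 10 were detected and 16 were not. Ccl21a and Ccl27a were not analysed here as single genes. Among the 10, 8 were lower with celastrol and 2 higher, with a median of -0.35. By at least 2-fold, 1 was lower and 0 were higher, against 0.662% and 1.88% of all detected genes. Ccl9, a mouse ligand of Ccr1, had 7.68 with celastrol and 9.19 with DMSO, 2.86-fold lower, a larger difference than those of 5 of the 9 detected members. Ccl17, a ligand of Ccr4, had 7.81 with celastrol and 8.79 with DMSO, 1.97-fold lower and so just short of 2-fold. Ppbp, the precursor of a platelet Cxcr2 ligand, had 12.31 with celastrol and 12.97 with DMSO, 1.59-fold lower. Its neighbour Pf4, a platelet chemokine, was under the limit at 4.81 with celastrol and 4.86 with DMSO. Ccl25, a ligand of Ccr9 in thymus and gut, went the other way, with 8.48 with celastrol and 7.65 with DMSO, 1.77-fold higher, while the other Ccl25 probe set showed a log2 difference of 0.38. Smaller log2 differences were seen for Cxcl16, a membrane-anchored ligand of Cxcr6 (-0.47), for the eosinophil attractant Ccl11 (-0.44), and for Cxcl17 (-0.22). Ccl19, a ligand of Ccr7, gave -0.12, and its 4 other probe sets ran from -0.14 to -0.03. Ccl28 passed the limit with DMSO only (5.56 with celastrol, 5.82 with DMSO) and Cxcl9 with celastrol only (5.73 with celastrol, 5.67 with DMSO), both at the limit itself.

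Most members lie in groups of chemokine genes along the genome, and each such group with a member held both detected and undetected genes. Ccl20 and Cxcl12 have no chemokine gene as a near neighbour. Of the 10 members, 4 are on chromosome 5, 3 on chromosome 11 and 1 each on chromosomes 1, 6 and 8, by the gene table of GRCm38.p6, which was used for order only. On chromosome 5 the order is Cxcl5, Ppbp, Pf4, Cxcl3, Cxcl15, Cxcl1, Cxcl2, with no other protein-coding gene between them. Cxcl5, Ppbp and Cxcl1 were detected there, while Pf4, Cxcl3, Cxcl15 and Cxcl2 were under the limit in both arrays. Cxcl10 stood between Cxcl9, at the limit, and Cxcl11, under it (5.65 with celastrol, 5.67 with DMSO). On chromosome 11 Ccl2 and Ccl7 are followed by Ccl11, which was detected, and by Ccl12, Ccl8 and Ccl1, which were not. Further along that chromosome Ccl5 and Ccl9 lie side by side, and both were over 2-fold lower, while the adjacent Ccl6, Ccl3 and Ccl4 were under the limit. On chromosome 8 Cx3cl1 lies between Ccl22, under the limit, and Ccl17. Chemokine genes of a group resemble each other in sequence, and cross-hybridisation between their probes was not tested.

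**Figure D3:**
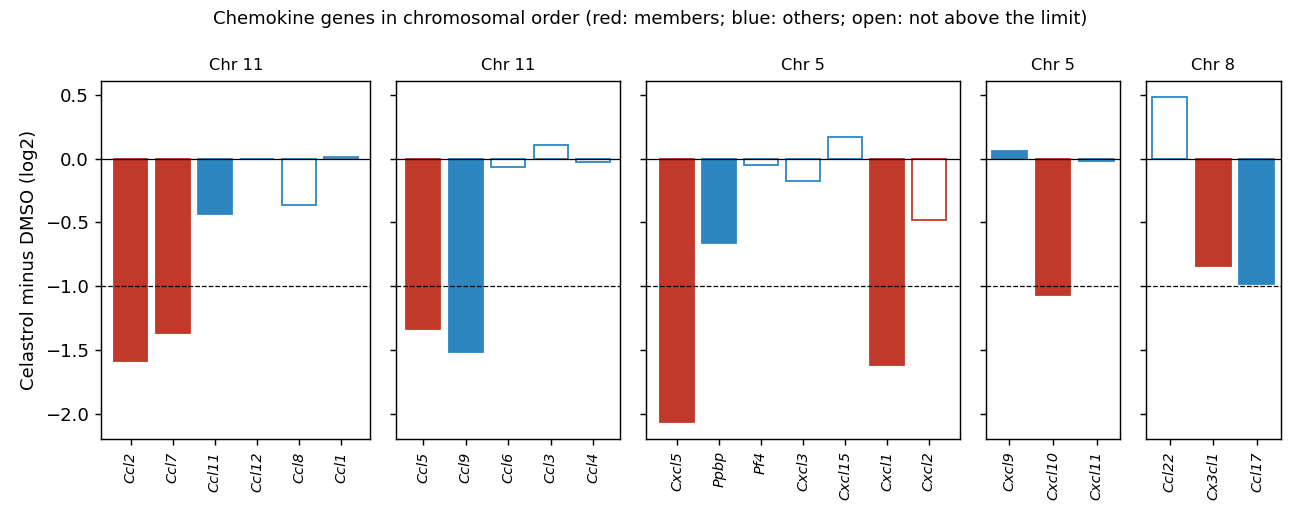
Log2 difference (celastrol minus DMSO, vertical axis) of chemokine genes in their order along chromosomes 11, 5 and 8, for the gene groups that hold a member. Members are red and other ligands blue, open bars are genes not above the limit in either array, and the dashed line marks 2-fold lower. Genes past the dashed line share a group with genes not above the limit in both chromosome 11 groups and both chromosome 5 groups.

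Receptors of these ligands were largely not detected in the fibroblasts. Of 22 chemokine receptors with a probe set of their own, 7 were detected and 15 were not. None of the 7 reached 2-fold in either direction, and their median difference was -0.04. Ackr3, an atypical receptor that takes up Cxcl12, had 7.04 with celastrol and 7.34 with DMSO, a log2 difference of -0.30. Cxcr4, the signalling receptor of Cxcl12, was under the limit at 5.50 with celastrol and 5.46 with DMSO. Ccr10, a receptor of Ccl27 and Ccl28, gave the highest difference at 0.47. The other detected receptors gave log2 differences of -0.24 for Ccr7, -0.18 for Cx3cr1, -0.04 for Cxcr3 and 0.03 for the scavenging receptor Ackr2. Ccrl2, a receptor-like protein that binds chemerin, gave -0.04. Cxcr2 and Ccr2, which bind the members with the neutrophil and monocyte roles named above, were under the limit in both arrays.

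Genes that start or transmit the inducing signal were in part lower and in part higher, with Tlr2 at the 2-fold line. Of 16 detected inducing cytokines and receptors, 8 were lower and 8 higher, with a median of -0.14. By at least 2-fold, 1 was lower and 0 were higher, against 0.662% and 1.88% of all detected genes. Tlr2, a receptor for bacterial lipoproteins, had 8.68 with celastrol and 9.68 with DMSO, a log2 difference of -1.001. Tlr4, the endotoxin receptor, had 8.13 with celastrol and 7.44 with DMSO, 1.61-fold higher. The interferon receptor chain Ifnar2 gave a log2 difference of -0.52 and the IL-17 receptor chain Il17rc -0.48. Tnfrsf1a, the main TNF receptor, gave 0.27. Il1a and Il1b were under the limit in both arrays. Tnf (5.74 with celastrol, 5.45 with DMSO) and Ifng (5.99 with celastrol, 5.69 with DMSO) passed it with celastrol only. Tnf lay at the limit itself and Ifng passed it by 1.20-fold, so expression of either gene is not established. Il17a had 6.13 in both arrays, also near the limit. Il1r1 was not analysed here.

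Among transcriptional regulators of chemokine genes, 3 genes of the IkB family had the lowest differences, while other members of that family lay nearer 0. Of 18 detected genes, 11 were lower and 7 higher, with a median of -0.21. At least 2-fold lower were 3, against 0.662% of all detected genes, and 0 were at least 2-fold higher, against 1.88%. Nfkbia, the inhibitor IkB-alpha and itself an NF-kB target, had 8.85 with celastrol and 10.49 with DMSO, 3.12-fold lower. Nfkbie, the inhibitor IkB-epsilon, had 7.78 with celastrol and 9.36 with DMSO, 2.99-fold lower. Bcl3, a nuclear IkB protein, had 7.80 with celastrol and 9.03 with DMSO, 2.34-fold lower. The subunit genes lay nearer 0, with log2 differences of -0.56 for Nfkb2, -0.33 for Relb, -0.17 for Rela and 0.06 for Rel, and Nfkb1 was not analysed here. Of the other IkB family genes, Nfkbiz gave -0.24 and Nfkbib 0.05. Irf1, an interferon-linked factor, gave -0.95, with -0.55 from its other probe set, and the NF-kB feedback gene Tnfaip3 gave -0.90. Cebpb, a bZIP factor of inflammatory genes, had the highest difference of the list at 0.55, while the related Cebpd gave -0.81. Ikbkg, the NEMO scaffold of the IkB kinase, gave 0.44.

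Genes that control the stability of chemokine mRNAs went both ways. AU-rich elements in many chemokine mRNAs recruit proteins that speed up or delay their decay. Of 13 such genes, all detected, 7 were lower and 6 higher, with a median of -0.02. In each direction 1 gene passed 2-fold, against 0.662% of all detected genes lower and 1.88% higher. Zfp36, or tristetraprolin, which promotes decay of AU-rich mRNAs, had 8.28 with celastrol and 7.27 with DMSO, 2.01-fold higher. Zc3h12a, the RNase Regnase-1, which also degrades inflammatory mRNAs, had 7.09 with celastrol and 8.35 with DMSO, 2.40-fold lower. Arid5a, an RNA-binding protein known to stabilise Il6 mRNA, gave 0.58, and Elavl1, the stabilising protein HuR, gave 0.17. The decay factor Khsrp gave -0.26. The RNA-binding ubiquitin ligase Rc3h1, or Roquin-1, gave -0.20, with -0.41 from its other probe set.

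Enzymes that trim chemokines and proteoglycans that present them showed no difference of 2-fold. Of 13 detected genes, 7 were lower and 6 higher, with a median of -0.03. Mmp9, a gelatinase that cleaves several chemokines, had 7.14 with celastrol and 7.98 with DMSO, 1.79-fold lower. Adam17, a sheddase that releases Cx3cl1 from the membrane, gave a log2 difference of 0.32, and Adam10, which also releases it, gave -0.12. Mmp2, which can trim Cxcl12, gave -0.13. The proteoglycan cores Gpc1 and Sdc1 gave 0.38 and 0.35, and Ext2, an enzyme of heparan sulphate synthesis, gave -0.35.

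**Figure D4:**
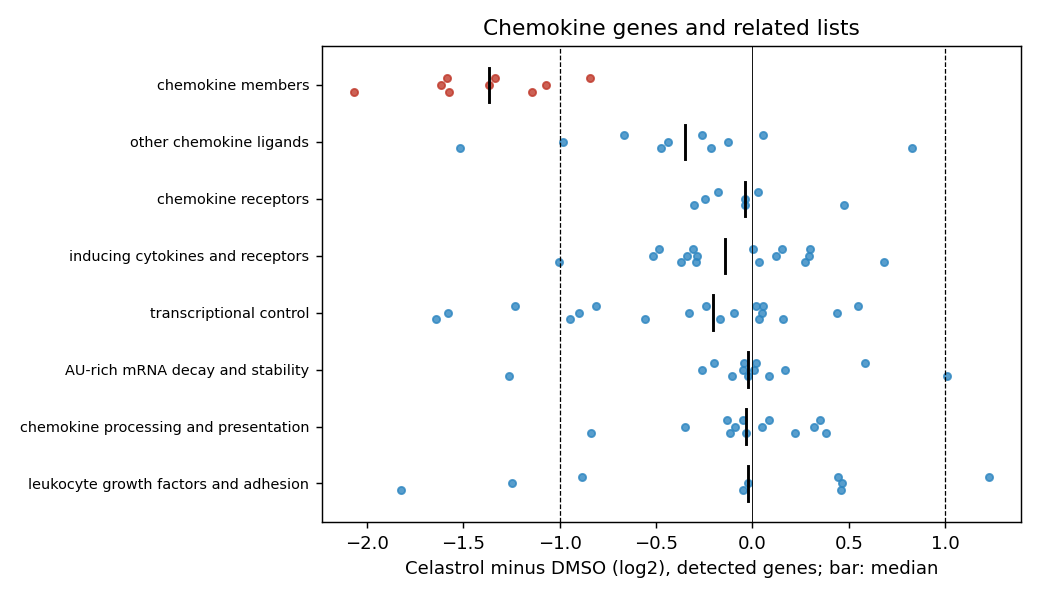
Log2 differences (celastrol minus DMSO, horizontal axis) of the detected genes of each list, 1 point per gene, with the list's median as a black bar and dashed lines at 2-fold. The chemokine members have a median of -1.37, while the medians of the 7 other lists run from -0.35 to -0.02.

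The cell type given in the labels was checked on marker genes. All 10 fibroblast markers were detected in both arrays, among them Vim, Fn1 and Col1a1, with differences from -0.88 to 0.27 and a median of -0.20. Their summed linear signal was 40744 with celastrol and 43478 with DMSO. Of 11 leukocyte markers, 5 were detected and all 5 were higher with celastrol, with Cd68 past 2-fold. Over all detected genes, 51.9% were lower by any amount and 1.88% were at least 2-fold higher. The pan-leukocyte gene Ptprc and the macrophage genes Itgam, Adgre1 and Lyz2 were under the limit in both arrays, as were Fcgr1 and Aif1. Csf1r (6.25 with celastrol, 5.99 with DMSO) and Cd3e (6.35 with celastrol, 6.15 with DMSO) passed it in both. Tyrobp passed it with celastrol only (5.78 with celastrol, 5.69 with DMSO). Cd68, a lysosomal protein abundant in macrophages, had 8.33 with celastrol and 6.86 with DMSO, and Cd14 had 7.65 with celastrol and 6.94 with DMSO. The summed linear signal of all 11 leukocyte markers, detected or not, was 941 with celastrol and 628 with DMSO. Cd68 had the largest difference among them, at 1.47 on the log2 scale. Of 6 endothelial markers 2 and of 6 epithelial markers 4 were detected, each within 0.15 of no difference.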

How the data were processed

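Total RNA of each group was hybridised to 1 array. The authors deposited log2 values from RMA (background correction, quantile normalization and a summary per probe set), a tool the submitters' processing notes name without version or settings. That the base is 2 was read from the range of the values, 2.73 to 14.5. Of 35556 probe sets, 21797 name 1 gene in GEO's platform annotation, 1613 several and 12146 none, and only the first kind entered comparisons. Each gene is given by its brightest probe set over both arrays, and differences are celastrol minus DMSO. The detection limit was the 95th percentile of 1210 olfactory and vomeronasal receptor probe sets. With 1 array per group no test was run, and the number of arrays limits the precision. Members, lists and the rule for named genes (all members, all detected chemokine ligands and receptors, and in the other lists up to 3 genes in each direction and all past 2-fold) were chosen with earlier results of these data known, and some genes outside the rule are named as limits. The procedure was tested on simulated data. Tools were statsmodels 0.14.6, pandas 2.3.3, numpy 2.4.6 and matplotlib 3.10.9 under Python 3.11.15.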

Additional observations from a re-analysis of the deposited data

How the results depend on the processing

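The differences of the 10 members were recalculated with averaged probe sets, with quantile normalization, and after centring on the median difference or on a lowess curve (fraction 0.3). All 40 recalculated differences kept their direction, and the largest shift was 0.06 on the log2 scale. Averaging could not change any of the 10 members, since each has 1 probe set. The deposited RMA values were already quantile normalized, so repeating that step could change little. The median of the detected members ran from -1.37 to -1.32 over these settings and over a detection limit set at the array median (6.34) or left out. The number of members at least 2-fold lower stayed at 8 under those 6 settings. It depends on the fold threshold by construction, with 9 members at 1.5-fold, where 4.68% of detected genes pass, and 2 members, Cxcl5 and Cxcl1, at 3-fold, where 0.137% pass. No member was higher past any of these thresholds. No paired analysis was possible because each group has 1 array, and leaving out a replicate was not possible for the same reason. Signal over background limits Cxcl2, whose values lie under the limit in both arrays.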

Other observations

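Other signals by which fibroblasts feed and hold leukocytes did not move as a group. Of 9 detected leukocyte growth factors and adhesion molecules, 5 were lower and 4 higher with celastrol, with a median of -0.02. By log2 difference, 2 were at least 2-fold lower, against 0.662% of all detected genes. Only 1 was at least 2-fold higher, against 1.88%. The 2 lower genes are Vcam1 and Il6, and a 2-fold difference is not established for Il6, whose celastrol value is under the limit. Vcam1, the adhesion molecule that binds monocytes and lymphocytes, had 8.93 with celastrol and 10.76 with DMSO, 3.54-fold lower. Il6 passed the detection limit with DMSO only (5.15 with celastrol, 6.40 with DMSO) and was at least 1.59-fold lower against that limit. Icam1, the ligand of leukocyte integrins, had 6.93 with celastrol and 7.82 with DMSO, 1.85-fold lower. Kitl, the stem cell factor of mast cells and blood progenitors, had 9.33 with celastrol and 8.11 with DMSO, 2.34-fold higher. Csf1 and Il34, the pair of ligands of the macrophage receptor Csf1r, were 1.38-fold and 1.37-fold higher.

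Probe sets for Ccl21 and Ccl27, whose annotation names several near-identical genes, stayed out of the comparisons. The 4 Ccl21 probe sets had the same value, 5.79 with celastrol and 5.92 with DMSO, and the 3 Ccl27 probe sets gave log2 differences from -0.20 to -0.11.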
